A study of Mus musculus with 17 samples.

Results

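The protein genes of the cytosolic ribosome were followed in 17 RNA sequencing libraries of sorted mouse HSPC (hematopoietic stem and progenitor cells), the bone marrow cells from which all blood is made. Genes were taken by symbol: Rpl or Rps with a number, or Rplp0, Rplp1, Rplp2 and Rpsa, without pseudogenes and without the Rps6k kinases, if they reached 10 counts in at least 3 libraries. Of 80 matching symbols among the 35321 of the count table, 78 were kept, 47 of the large subunit and 31 of the small subunit, and all 78 entered the tests. Just inside the limit was Rpl3l, a paralog of Rpl3, with 10 or more counts in 7 libraries (3 with PBS, 3 with LPS at 72 h and 1 with antibody at 72 h) and at most 34. It entered through groups where it is higher, so its low counts at 24 h are given as a description, with no p-value. Just outside were Rpl39l, with 10 or more counts in 2 libraries and at most 19, and Rpl10l, with 0 counts in every library.

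All mice were wild-type C57BL/6J, an inbred strain. The 5 PBS libraries (titled day 0) came from mice injected intraperitoneally with buffered saline. The 4 other groups, with 3 libraries each, received LPS (lipopolysaccharide, an outer membrane molecule of bacteria sensed by innate immunity), alone or together with a blocking antibody against IL-10R, the receptor of interleukin-10, and bone marrow was taken 24 or 72 h later. IL-10 is a cytokine that restrains inflammation, so the antibody groups show the LPS response with that signal blocked. There was no group given antibody without LPS, and the labels give neither age nor sex, nor whether a library holds 1 mouse or a pool. The figure for LPS is 5 and for antibody 100, in micrograms in the design text and in milligrams in the sample labels, and neither unit was assumed. P-values measure the spread between these samples.

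Ribosomal proteins clothe and hold the ribosomal RNA of both ribosomal subunits and are made in nearly equal numbers, so their messenger RNAs are abundant in all growing cells and tend to move as 1 block. Most of these mRNAs begin with a cytosine followed by a run of pyrimidines, the terminal oligopyrimidine (TOP) tract, through which mTORC1 and the RNA-binding protein LARP1 set their translation and stability. Blood-forming cells are sensitive to their dose: loss of a single copy of several members causes Diamond-Blackfan anemia, and loss of RPS14 contributes to the anemia of the 5q- syndrome.

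The family is shown first by its start sites, where the TOP tract described above would lie. Promoter windows from RefSeq (GRCm38.p6) were found for 58 members. A C followed by at least 4 pyrimidines lay exactly at an annotated start in 13 of the 58 (22.4%), against 3.01% of 27025 genes with such a window. Allowing 5 bases to either side, the figures were 28 of 58 (48.3%) and 21.2%. The 7-base sequence CCGGAAG, a binding motif of ETS factors such as GABPA, occurred on either strand of the 300-base window in 24 of 58 members (41.4%) and in 9.93% of all genes. The windows below run from 15 bases before to 15 bases from the annotated start, 5′ to 3′, with the C and its pyrimidines in capitals. The first 5 show a tract that begins at the start itself, and the last 4 are members singled out in the results, of which Rps15 and Rpl3l have no such tract within 5 bases. Only RefSeq starts were searched. For Rps2, Rps15 and Rpl3l the GENCODE gene starts given below lie outside the 5 bases searched.
Rps6 (chr4:86857353-86857382, minus strand): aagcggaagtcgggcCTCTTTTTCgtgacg
Rpl35 (chr2:39005117-39005146, minus strand): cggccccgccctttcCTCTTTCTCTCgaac
Rpl15 (chr14:18270972-18271001, minus strand): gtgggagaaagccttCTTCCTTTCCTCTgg
Rps10 (chr17:27635230-27635259, minus strand): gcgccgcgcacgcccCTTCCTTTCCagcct
Rplp2 (chr7:141447636-141447665, plus strand): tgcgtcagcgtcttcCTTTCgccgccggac
Rps2 (chr17:24720048-24720077, plus strand): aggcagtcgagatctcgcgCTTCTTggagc
Rps27l (chr9:66946071-66946100, plus strand): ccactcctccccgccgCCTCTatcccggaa
Rps15 (chr10:80292416-80292445, plus strand): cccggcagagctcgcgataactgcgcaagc
Rpl3l (chr17:24727811-24727840, plus strand): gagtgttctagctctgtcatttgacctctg
A match is a description of these letters, and a window without one says nothing about the factor. The 28 members with a tract within 5 bases and the 30 without had these median log2 changes, respectively: 0.33 and 0.27 for LPS at 24 h against PBS, and -0.48 and -0.50 for antibody against LPS alone at 72 h.

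The library totals ran from 10516722 to 16006001 counts, and the 78 members held between 8.52% and 15.6% of them. The labelled cell type was checked against 12 HSPC markers (among them Kit, Cd34 and Mecom), all detected in each group, with a summed level of 1804 to 2641 CPM (the usual counts-per-total unit, with library totals scaled by edgeR's TMM factors) with PBS. The sum was 1188 to 1329 CPM with LPS and 1277 to 1601 CPM with antibody at 24 h, all below the PBS libraries, and 1850 to 2468 CPM with LPS and 1267 to 1920 CPM with antibody at 72 h. At 24 h of LPS 7 of the 12 were called lower than with PBS (18.5% of all genes were, edgeR). Markers of other blood cells were present too, and no marker was at 0 in all libraries of a group. The sum of 12 neutrophil genes was 2536 to 15136 CPM with PBS and 3914 to 17744 CPM elsewhere. The sum of 15 erythroid genes was 623 to 1007 CPM with PBS, 824 to 1864 CPM with LPS and 280 to 3299 CPM with antibody at 24 h, and 173 to 473 CPM with LPS and 291 to 2034 CPM with antibody at 72 h. The sum of 15 macrophage genes was 713 to 4910 CPM, then 260 to 298, 330 to 520, 532 to 911 and 299 to 731 CPM in the same order. The sum of 11 B and plasma cell genes was 562 to 1522 CPM with PBS and 230 to 594 CPM elsewhere, and the sum of 10 T and NK cell genes was 75.8 to 298 CPM over all libraries. Their part in the results below was not tested. In bulk RNA, fewer cells of a type and less RNA per cell cannot be told apart.

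Single libraries set much of the family's level. The mean log2 CPM of the 78 members was 9.96, 10.10, 9.71, 9.99 and 9.79 in the PBS libraries. With LPS at 24 h it was 10.71, 9.75 and 9.86, and with LPS and antibody at 24 h it was 10.21, 9.81 and 10.10. With LPS at 72 h it was 10.67, 10.57 and 9.93, and with LPS and antibody at 72 h it was 9.96, 9.91 and 9.87. The LPS 24 h library 1 thus stood above every PBS library, with 77 members above all 5 PBS values. The means of libraries 2 and 3 of that group lay within the PBS range. Libraries 2 and 3 had 4 and 14 members above all 5 PBS values, and 32 and 14 members below all 5. In the LPS 72 h group, libraries 1 and 2 each had 76 members above all PBS values and library 3 had 1. On this scale the 3 antibody libraries at 72 h were the tightest group (SD 0.0437 of the mean log2 CPM, against 0.160 with PBS).

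Other short mRNAs were also high in LPS 24 h library 1 and LPS 72 h libraries 1 and 2, but they did not follow the family in every library. Members have short transcripts, with a median of 768 bases against 2814 bases for other tested genes with an annotated length. For 216 other abundant genes with transcripts under 1000 bases, the median log2 CPM difference from the PBS mean was 1.18 in LPS 24 h library 1 and 0.21 and 0.22 in libraries 2 and 3 of that group. It was 0.33, 0.47 and -0.05 in the LPS 72 h libraries 1, 2 and 3, the same library that was low in ribosomal protein RNA being low here. In the antibody libraries it was 0.37, 0.30 and 0.51 at 24 h and 0.05, 0.13 and 0.32 at 72 h. The same median for the members was 0.85, -0.15 and -0.05 with LPS and 0.30, -0.10 and 0.19 with antibody at 24 h. At 72 h it was 0.75, 0.62 and 0.01 with LPS and 0.04, -0.01 and -0.05 with antibody. LPS 24 h library 1 also had the lowest scaling factor (0.799) and the fewest detected genes (16431). A trend of log2 CPM on transcript length, fitted in each library over abundant non-members and removed, was therefore added after seeing the data. It left the family's mean at 9.85, 9.77 and 9.85 with LPS at 24 h, below the PBS libraries at 10.09 to 10.25, and at 10.58, 10.33 and 10.20 with LPS at 72 h. With antibody the means were then 10.11, 9.75 and 9.84 at 24 h. At 72 h they were 10.14, 9.97 and 9.78, a wider range than with PBS.

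**Figure D1:**
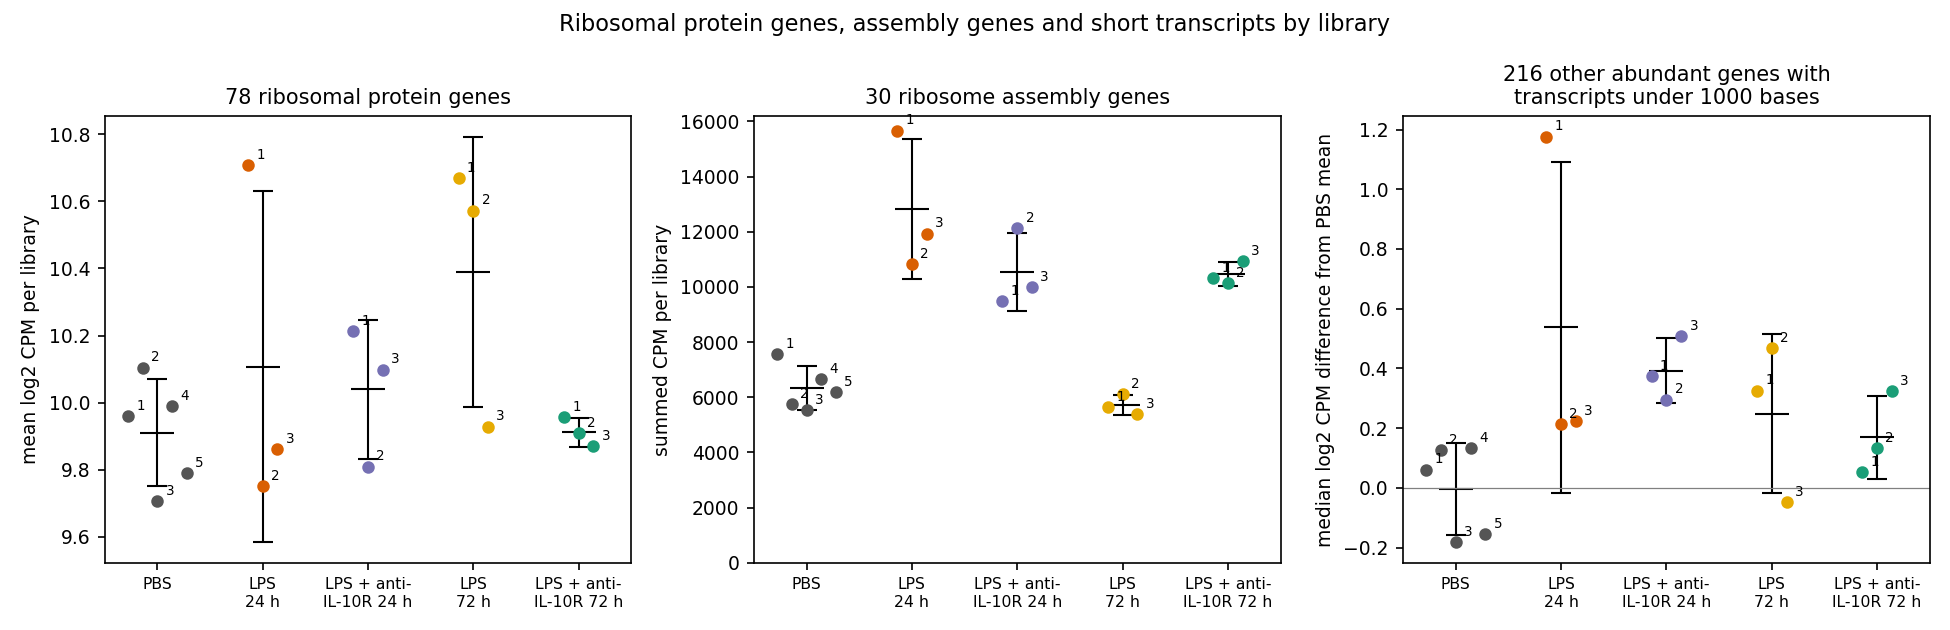
Level per library of the 78 ribosomal protein genes (left, mean log2 CPM), of 30 ribosome assembly genes (middle, summed CPM) and of 216 other abundant genes with short transcripts (right, median log2 CPM difference from the PBS mean). Points are libraries numbered by replicate, and bars are group means with SD. LPS 24 h library 1 is highest in all 3 plots, the LPS 72 h libraries separate on the left but lie together between 5386 and 6119 CPM in the middle.

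At 24 h after LPS alone, 7 members were called higher than with PBS and 1, Rpl3l, lower, the latter as a description only. That is 10.3% of the family, below the 37.6% of all 14920 genes called in either direction (edgeR quasi-likelihood test, Benjamini-Hochberg adjusted p under 0.05), and 7 higher is 8.97%, against 19.1% called higher. The median member change was 0.28 (log2), against -0.03 for all genes, and 75 of 78 fitted changes lay above 0 (background 48.4%). Without LPS 24 h library 1 the median was -0.10. The 8 calls became 3 without that library, without PBS library 3 or without PBS library 5, and 17 without LPS 24 h library 2. In these fits 3361, 4752, 4628 and 5443 of all genes were called, in that order. Replicate numbers paired the samples of this comparison by the correlation rule, and a fit with that number as a block called 3 members (Rps27l, Rps2 and Rpl3l). With the length trend removed, the median was -0.31 and 42 members were called lower and 1 higher. In that fit the median of all genes was -0.25, and 5475 of 12671 genes were called in either direction.

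Rps2 and Rps27l rose at 24 h. RPS2 lies near the entry of the mRNA channel of the small subunit, and its gene lies at chr17:24718116-24721929 on the plus strand (GRCm38, GENCODE vM21). Rps2 had 2166, 1844, 1744, 2262 and 1528 CPM with PBS and 3436, 2732 and 2797 CPM with LPS at 24 h. The lowest LPS library was above the highest PBS library. The log2 change was 0.65 (SE 0.155, adjusted p = 0.0051), and it kept its call without each library in turn, but not with the length trend removed (0.14, adjusted p = 0.337). Rps27l (chr9:66946086-66949516, plus strand) encodes a paralog of RPS27 that is a p53 target. It had 118, 105, 78.3, 98.3 and 89.8 CPM with PBS and 311, 158 and 151 CPM with LPS at 24 h, again with no overlap. Its log2 change was 1.08 (SE 0.215, adjusted p = 0.00183), and the call held in all 18 alternatives run for it.

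The 5 other increases were less stable. Rpl41 encodes the smallest ribosomal protein, and it had 1278, 1228, 935, 1182 and 953 CPM with PBS against 3146, 1272 and 1323 CPM, so that library 2 lay within the PBS range. Its log2 change was 0.78 (SE 0.292, adjusted p = 0.0465). Rpl29 rose by 0.65 (adjusted p = 0.029), Rpl8 by 0.56 (adjusted p = 0.0431), Rpl27 by 0.55 (adjusted p = 0.0302) and Rpl7a by 0.42 (adjusted p = 0.025), all of the large subunit. Without LPS 24 h library 1, PBS library 3 or PBS library 5 none of these 5 was called, and the highest adjusted p over the alternatives run was 0.596 for Rpl41 and 0.855 for Rpl8.

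The member that fell was Rpl3l (chr17:24727820-24736143, plus strand), which starts 5890 bases after the end of Rps2 and is best known from muscle, where it replaces RPL3. Its counts were 13, 11, 10, 9 and 4 in the PBS libraries and 0, 2 and 0 with LPS at 24 h. Summed over libraries, the rate was 14.6 times higher with PBS (47 counts) than with LPS at 24 h (2 counts), with an exact 95% interval for counting error of 3.83 to 124. At such counts the fitted fold depends on the prior count and is not given here.

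LPS with the antibody at 24 h gave the same pair of increases. Of 78 members 2 were called, both higher (2.56%, against 24.2% of all genes called in either direction and 11.7% called higher), and the median member change was 0.13. Rps2 had 3106, 2763 and 2829 CPM, with no overlap with PBS (log2 change 0.60, SE 0.156, adjusted p = 0.0147). Rps27l had 142, 154 and 187 CPM, likewise above all PBS libraries (log2 change 0.72, SE 0.217, adjusted p = 0.0276). Both calls were lost without antibody 24 h library 2, and that of Rps27l also without antibody library 3, PBS library 3 or PBS library 5 (adjusted p up to 0.133 for Rps2 and 0.103 for Rps27l over all alternatives). With the length trend removed, 21 members were called lower and 1 higher, and 3728 of 12671 genes were called in either direction. The median was then -0.22 for the members and -0.17 for all genes. Between antibody and LPS alone at 24 h no member was called by edgeR (0% of all genes), 1 had an unadjusted p under 0.05 (background 1.83%), and DESeq2 called 0.

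At 72 h after LPS alone, nearly the whole family leaned upward but no member passed the test. The median change against PBS was 0.47, against -0.03 for all genes, and 77 of 78 fitted changes were above 0 (background 45.9%). No member was called by edgeR (0.0201% of all genes were), and DESeq2 called 0. At an unadjusted p under 0.05 there were 50 of 78 members, all higher (64.1%, against 5.2% of all genes). That number was 5 without LPS 72 h library 1, 10 without library 2, 24 without PBS library 3, 29 without PBS library 5, 33 with the replicate block and 33 with the length trend removed. The groups overlapped for every member except Rpl3l (1.28%, against 4.96% of all genes), because LPS 72 h library 3 lay within the PBS range. The median was 0.34, 0.43 and 0.67 without LPS 72 h library 1, 2 or 3 and 0.20 with the length trend removed, with no member called in any of these. Rpl3l had 22, 34 and 16 counts at 72 h, and its summed rate was 3.01 times that of PBS (exact 95% interval for counting error 2.06 to 4.45).

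With LPS and antibody at 72 h the family lay at the PBS level. The median change against PBS was -0.01, 36 members lay above 0 and 42 below (background 49.7% above 0), and no member was called by edgeR or DESeq2 (13.2% of all genes were called by edgeR), with 1 at an unadjusted p under 0.05 (background 31.7%). With the length trend removed, 4 members were called lower and 1 higher, and 2847 of 12671 genes were called in either direction. The median was then -0.18 for the members and -0.16 for all genes. Rps27l had 129, 138 and 169 CPM, all above the PBS libraries, with an adjusted p of 0.0875.

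Against LPS alone at 72 h, fitted values were lower with antibody for most members, but few passed the test, and the family mean of LPS 72 h library 3 lay within the antibody range. Of 78 fitted changes 2 lay above 0 (background 50.4%). The median member change was -0.52, against 0.01 for all genes, and 3 members fell (3.85%, against 6.48% of all genes called lower and 15.1% in either direction). For 25 members all antibody libraries were below all LPS libraries (32.1%, against 16.1% of all genes), and 39 members had an unadjusted p under 0.05, all lower (50%, against 15.4%). The latter number was 2 and 11 without LPS 72 h library 1 or 2, 63 without library 3 and 11 to 19 without any 1 antibody library. The count of called members was 25 without LPS 72 h library 3, and 0 without any 1 of the 5 other libraries. Over all genes 2279 were called in the first of these fits and 769 to 2096 in the others. DESeq2 called 15 members, all lower, and 3029 of 14901 genes in either direction. With the length trend removed 44 members were called lower and 1 higher, and 3052 of 12671 genes were called. The median was then -0.38 for the members and -0.12 for all genes. The family mean of LPS 72 h library 3 was then 10.20, above the antibody range of 9.78 to 10.14.

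Rps15 and Rps9 were among those called. Rps15 (chr10:80292453-80294114, plus strand), which encodes a protein at the decoding site, had 2675, 2435 and 1161 CPM with LPS and 962, 993 and 1002 CPM with LPS and antibody. The antibody libraries were lower than all 3 LPS libraries, though LPS library 3 was close to them, and Rps15 fell by 1.08 on the log2 scale (SE 0.301, adjusted p = 0.0257). Rps9, which lies at the mRNA entry channel, had 3620, 3013 and 1960 CPM against 1691, 1730 and 1691 CPM (log2 change -0.75, SE 0.244, adjusted p = 0.0495). Without any 1 library other than LPS 72 h library 3, neither kept its call (adjusted p up to 0.214 for Rps9 over the alternatives). The Fau gene, which encodes RPS30 fused to a ubiquitin-like protein and is outside the symbol rule, fell as well: 1362, 1173 and 677 CPM against 609, 595 and 557 CPM (log2 change -0.87, SE 0.255, adjusted p = 0.0329). This call too was lost without any 1 library other than LPS 72 h library 3 (adjusted p up to 0.159 over the alternatives).

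**Figure D2:**
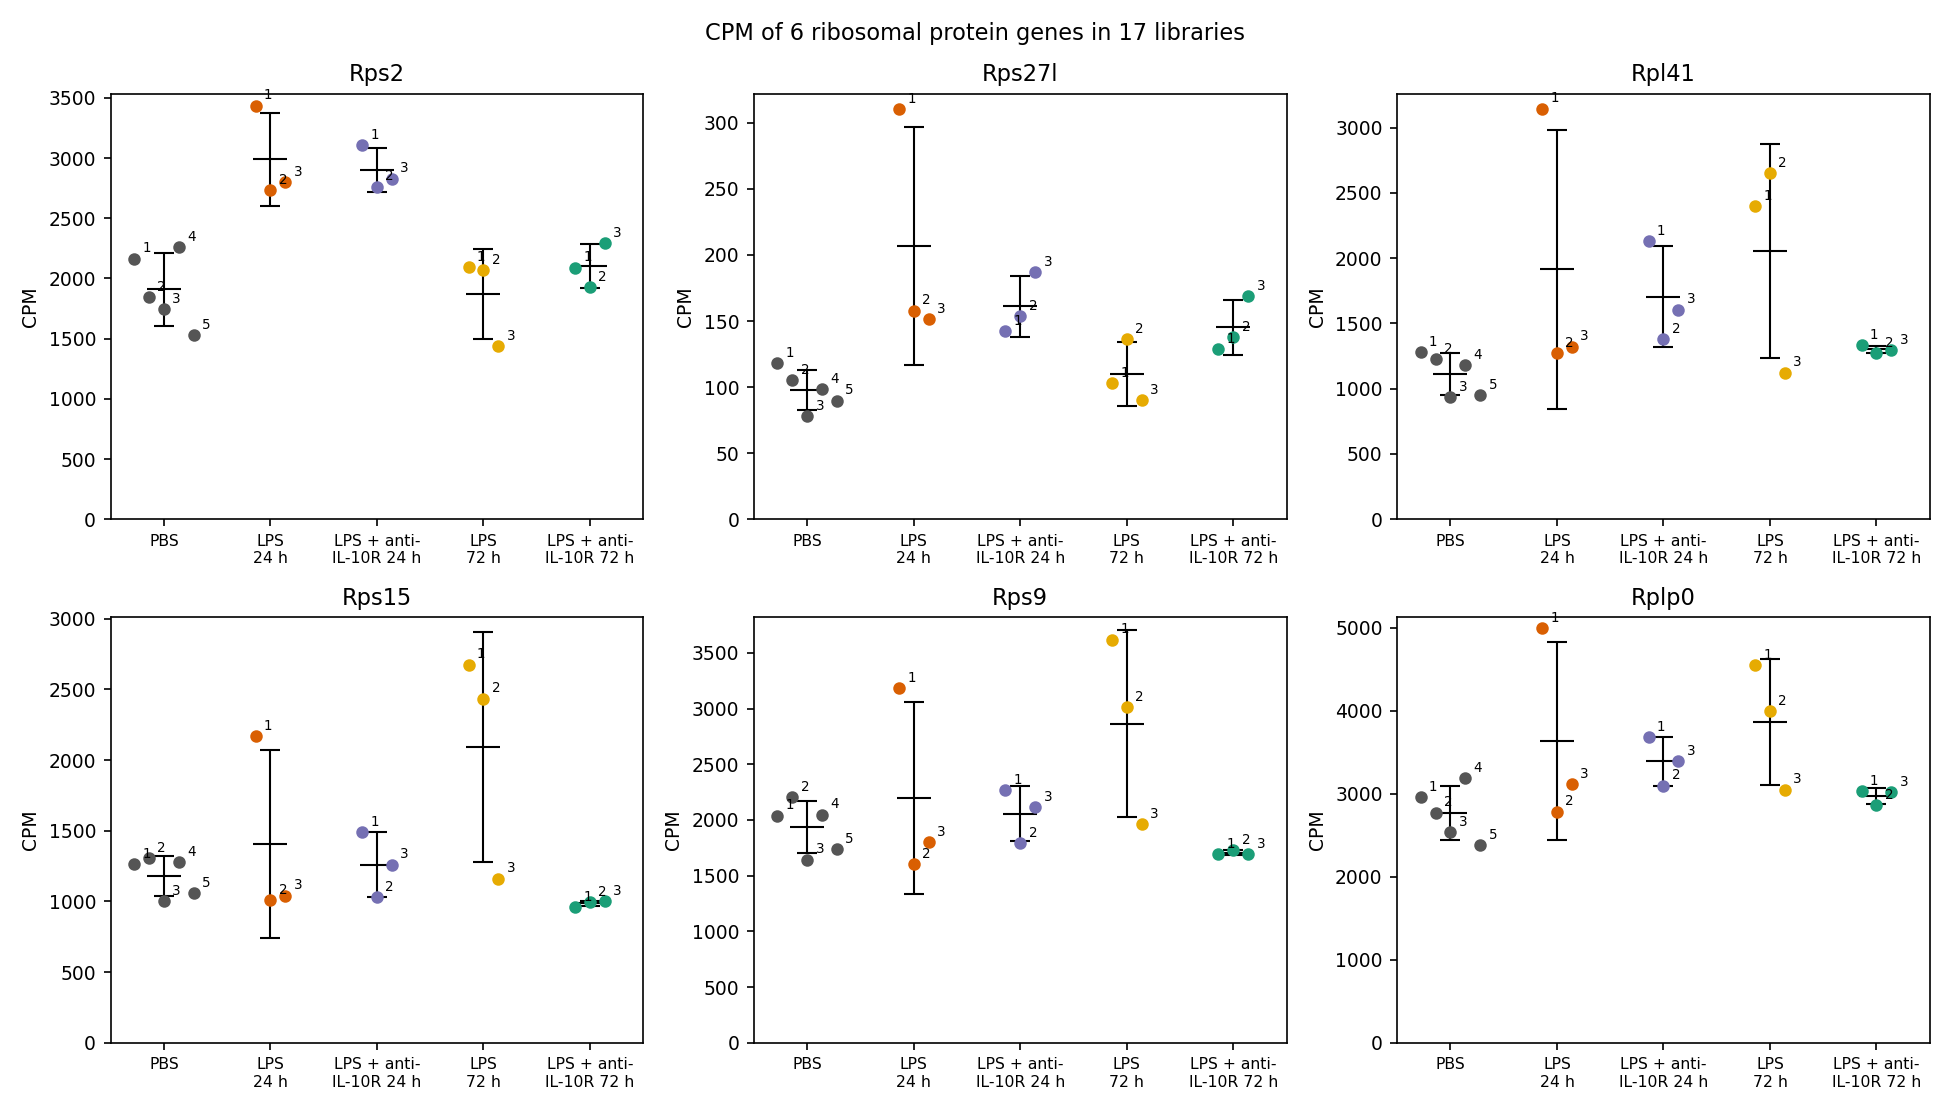
CPM of 6 members in the 17 libraries (y axes from 0). Points are libraries numbered by replicate, and bars are group means with SD. Rps2 and Rps27l are above the PBS libraries in all 6 libraries at 24 h. Rpl41, Rps15, Rps9 and Rplp0 are highest in LPS 24 h library 1 and LPS 72 h libraries 1 and 2. With antibody at 24 h, Rpl41 is also above the PBS libraries in each library, and Rplp0 in all but library 2.

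Members known for disease or signalling roles were seldom called. The stalk proteins recruit the translation factors. Rplp0 had 2962, 2772, 2533, 3183 and 2385 CPM with PBS, 4997, 2784 and 3114 CPM with LPS and 3682, 3097 and 3390 CPM with antibody at 24 h, then 4544, 3995 and 3047 CPM and 3033, 2860 and 3018 CPM at 72 h. Rplp0, often used as a reference gene, thus varied with the same libraries as the rest. None of the 4 stalk genes (Rplp0, Rplp1, Rplp2, Rpl12) was called in any of the 8 comparisons. Over these comparisons 0% to 37.6% of all genes were called.

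RPL5 and RPL11 with 5S RNA, and RPL23, can bind MDM2, the ubiquitin ligase of p53, when ribosome assembly fails. Rpl5 had 1559 to 1891 CPM with PBS, 2314, 1533 and 1716 CPM with LPS at 24 h and 2179, 2300 and 1672 CPM at 72 h. Rpl11 had 900 to 1135 CPM with PBS, 1811, 913 and 1036 CPM at 24 h and 1584, 1533 and 958 CPM at 72 h. In both groups the libraries overlapped with PBS. None of these 3 genes was called in any of the 8 comparisons, where 0% to 37.6% of all genes were called.

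Of 19 members mutated in Diamond-Blackfan anemia, 1 was called in 1 comparison (Rpl27, LPS at 24 h against PBS, where 37.6% of all genes were called), and that call was lost without LPS 24 h library 1, PBS library 3 or PBS library 5. Rps19, the gene most often mutated, had 1090 to 1514 CPM with PBS, 1993, 1190 and 1204 CPM with LPS at 24 h, 2130, 1818 and 1273 CPM with LPS at 72 h and 1266, 1218 and 1062 CPM with antibody at 72 h. The 72 h groups did not overlap, and the adjusted p was 0.0841. Rps14 had 1130 to 1437 CPM with PBS and 2284, 1883 and 1122 CPM against 1157, 1120 and 1057 CPM at 72 h, with overlap. Rps6, the substrate of S6 kinase, had 1744 to 2268 CPM with PBS and 2896, 2715 and 2012 CPM against 1840, 1835 and 1953 CPM at 72 h (adjusted p = 0.17).

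Members were scaled against one another by taking each gene's log2 CPM minus the mean of the other members in that library. On this scale the median SD over 17 libraries fell to 0.129, from 0.340 in log2 CPM, and 66 of 78 members had an SD under 0.2. The 4 members farthest from the family over the comparisons with PBS were Rpl3l, Rps27l, Rpl41 and Rps2. Relative to the family and to the PBS mean, Rps27l stood at 0.85, 0.86 and 0.67 with LPS at 24 h and at -0.67, -0.15 and -0.11 at 72 h, and Rps2 stood at 0.03, 0.68 and 0.59 at 24 h and at -0.61, -0.52 and -0.41 at 72 h. A fit with libraries scaled to the members alone, added after seeing the data, calls changes relative to the family. It shifted the median of all genes by -0.45 to 0.45. In it, Rps27l (0.78), Rpl41 (0.44) and Rps2 (0.45) rose at 24 h of LPS (adjusted p = 0.0109, 0.0413 and 0.05). Against LPS alone at 72 h, the antibody group had more Rps27l (0.89), Rps2 (0.68) and Rpl27 (0.50) and less Rps15 (-0.52) than the family (adjusted p = 0.0146, 0.0178, 0.0198 and 0.0192).

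**Figure D3:**
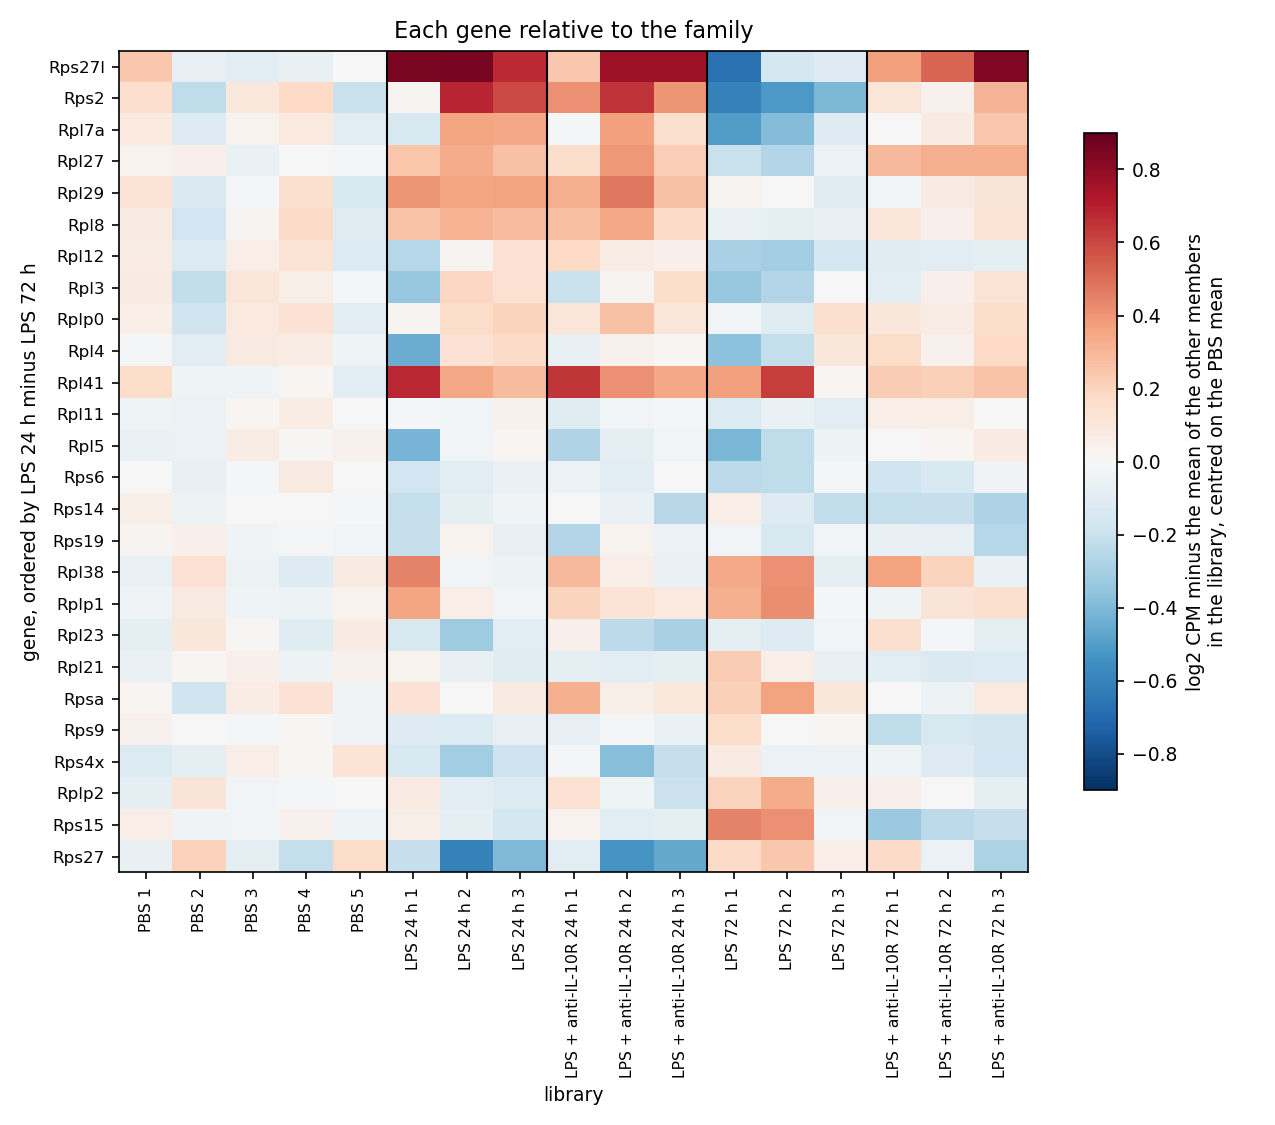
26 of the members named in the text (rows, without Rpl3l) in 17 libraries (columns), as log2 CPM minus the mean of the other members in the library, centred on the PBS mean. Rows are ordered by the difference between LPS at 24 h and at 72 h. Rps27l and Rps2 lead the ordering, with Rps2 at 0.03 in LPS 24 h library 1, and Rps27 and Rps15 close it.

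Between 24 h and 72 h of LPS, Rps2 and Rps27l fell and Rpl3l rose. These 3 were the called members (3.85%, against 31.1% of all genes). The call of Rpl3l is a description only, since it entered the family through groups where it is higher. Rps2 had 2097, 2070 and 1437 CPM at 72 h, below all 24 h libraries (log2 change -0.68, SE 0.177, adjusted p = 0.0095). Rps27l had 103, 136 and 90.2 CPM at 72 h, also without overlap (log2 change -0.91, SE 0.248, adjusted p = 0.0119, and 0.0881 without LPS 24 h library 1). The rate of Rpl3l was 44.1 times higher at 72 h (72 counts) than at 24 h (2 counts), with an exact 95% interval for counting error of 11.8 to 371. The median of the family changed by 0.24, and without LPS 24 h library 1 it changed by 0.64 (all genes 0.05). In the latter fit 45 members were called higher and 1 lower, and 3489 of 15257 genes were called in either direction. With the length trend removed, 62 members were called higher and 2 lower, and 5061 of 12671 genes were called. The median was then 0.52 for the members and 0.22 for all genes. With antibody, no member was called between the times by edgeR (0% of all genes) or DESeq2, with 2 at an unadjusted p under 0.05 (background 4.26%).

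The antibody effect at 72 h was tested against that at 24 h. Of the members, 1 was called (1.28%, against 6.35% of all genes), Rpl3l. Its counts were 6, 3 and 6 with antibody against 0, 2 and 0 at 24 h, and 11, 9 and 2 against 22, 34 and 16 at 72 h. The call was lost without each of 7 libraries. It is given as a description, since Rpl3l entered the family through groups where it is higher.

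Per kilobase of coding sequence, the PBS level of the members had a median of 2445 CPM. Rpl41, with 75 coding bases, stood highest at 14871 CPM per kilobase, and the lowest after Rpl3l (0.508) was Rps27l at 389. The members had a median coding length of 454.5 bases and a median transcript length of 768. Reads outside the coding sequence may be counted too, so this measure can run high where little of a transcript is coding, as in Rpl41. By CPM over all libraries, Rpsa (4303), Rpl4 (3450), Rplp0 (3258), Rpl3 (2878) and Rps4x (2627) were highest, and Rpl3l (0.726), Rps27l (139), Rpl21 (283), Rpl38 (474) and Rpl29 (535) lowest. The members lie on 19 chromosomes, and 29 of them hold snoRNA genes, 56 in all, within their bounds on the same strand. Counts of genes with near-identical copies or overlapping genes are uncertain, since how multiply matching reads were counted is not given in the sources used here.

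Paralogs were compared as shares of their pair, a ratio that library scaling leaves unchanged. Rps27l made up 13.8%, 9.63%, 11.3%, 12.5% and 10.4% of Rps27l plus Rps27 in the PBS libraries. At 24 h the share was 21.1%, 26.0% and 21.1% with LPS and 14.03%, 23.9% and 23.0% with antibody, so that all 6 libraries lay above PBS. At 72 h it was 6.76%, 8.96% and 10.3% with LPS and 12.9%, 16.1% and 21.7% with antibody, groups that do not overlap. Rpl36al, a copy of Rpl36a outside the symbol rule, was also above PBS in all 6 libraries at 24 h: 28.4% to 34.8% of its pair with PBS, 41.9%, 42.7% and 39.1% with LPS at 24 h and 35.2%, 44.4% and 40.1% with antibody. Rpl22l1, the paralog of Rpl22, was 24.2% to 26.0% of its pair with PBS, 23.8%, 34.7% and 24.9% with LPS at 24 h, and 18.3%, 21.2% and 20.6% with LPS at 72 h, below every PBS library. The exact permutation p (two-sided) was 0.0357 for Rps27l and for Rpl36al in both 24 h groups, for Rpl22l1 with LPS at 72 h and for Rpl7l1 in its pair with Rpl7 with LPS at 24 h. This is the smallest value that 3 against 5 libraries can give. After Benjamini-Hochberg adjustment over the 20 tests of 5 pairs it was 0.119, a value that this design could bring under 0.05 only with many more tests at that smallest p. In the fit across all genes, Rpl36al rose by 0.82 (adjusted p = 0.019, and 0.321 without LPS 24 h library 1) and Rpl7l1 by 0.77 (adjusted p = 0.00201) with LPS at 24 h.

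**Figure D4:**
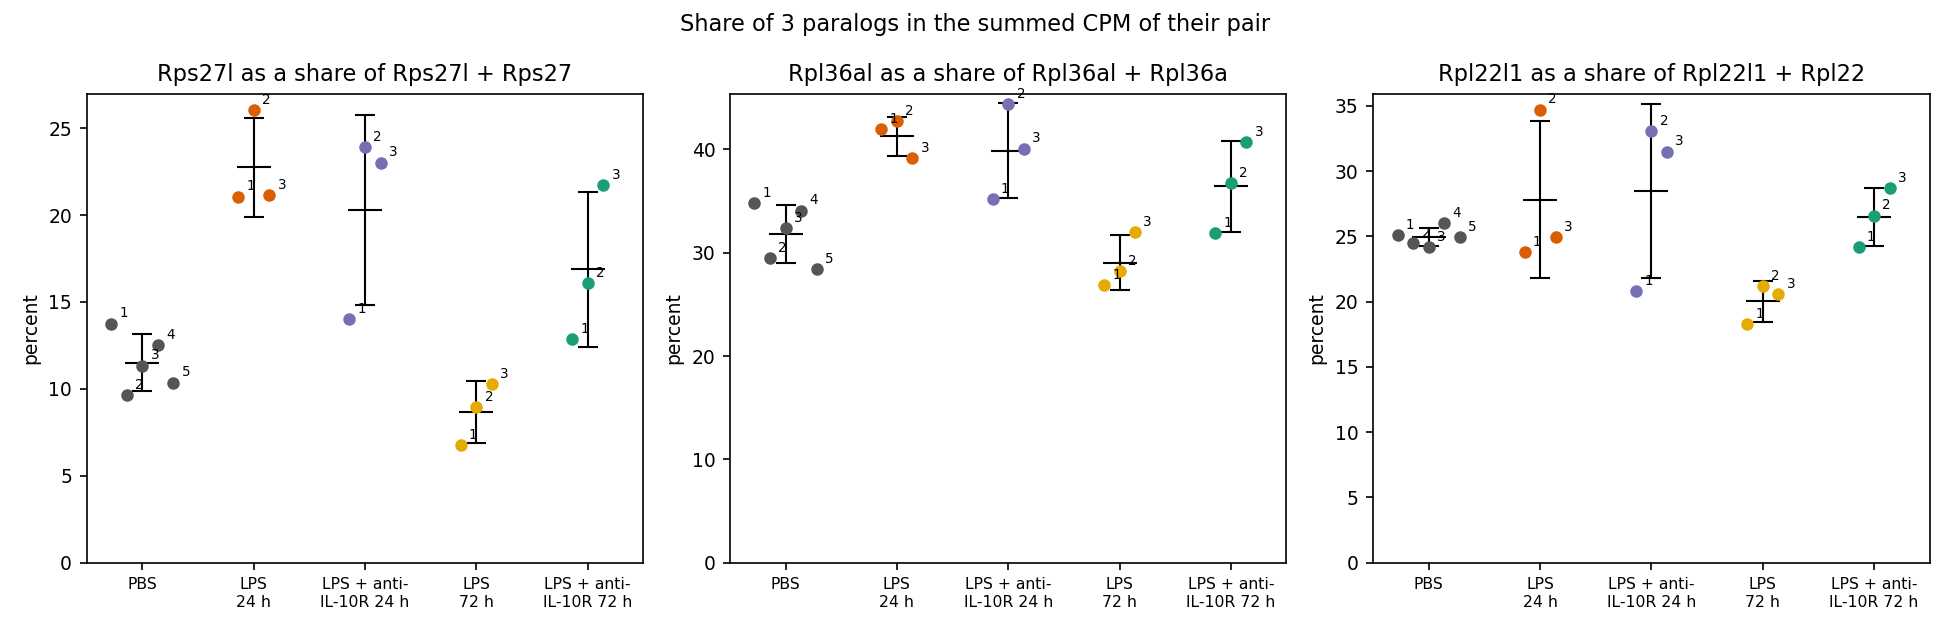
Share of Rps27l, Rpl36al and Rpl22l1 in the summed CPM of each pair with Rps27, Rpl36a and Rpl22 (percent, y axes from 0). Points are libraries numbered by replicate, and bars are group means with SD. For Rps27l the means are 11.5% with PBS, 22.7% and 20.3% at 24 h, and 8.67% with LPS against 16.9% with antibody at 72 h.

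Genes that build ribosomes rose at 24 h of LPS in nearly the whole list and, at 72 h, were higher with antibody than without. A list of 30 assembly factors was used (among them nucleolin Ncl, fibrillarin Fbl, the H/ACA protein Nhp2 and subunits of RNA polymerase I). Of these, 29 rose at 24 h of LPS against PBS (median log2 change 0.86, all genes -0.03, 19.1% of all genes called higher), 27 rose with antibody at 24 h (0.63, background 11.7%) and 16 rose with antibody at 72 h (0.57, background 6.81%). With LPS at 72 h none was called against PBS (median -0.22), where 0.0201% of all genes were. At 72 h, 21 were higher with antibody than with LPS alone (median 0.78, background 8.64%), where the ribosomal proteins had a median of -0.52. From 24 h to 72 h of LPS, 27 fell (median -1.10, background 16.4%), whereas the ribosomal protein median was 0.24. Without LPS 24 h library 1 the counts were 27 at 24 h against PBS and 27 between the times, and with the length trend removed they were 23 and 27. Without antibody 24 h library 2 the count of 27 was 8. Scaled to the members, the counts against PBS were 15, 5 and 0, and 30 against LPS alone at 72 h. The count of 16 was 8 without antibody 72 h library 3, 9 without library 1 of that group, and 10 without PBS library 2.

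Nhp2, which stabilizes H/ACA RNAs, had 83.2 to 133 CPM with PBS and 455, 179 and 197 CPM with LPS at 24 h (log2 change 1.44, SE 0.259, adjusted p = 0.00104). Bop1, a factor of large subunit maturation, had 78.2 to 142 CPM with PBS and 320, 209 and 241 CPM at 24 h (1.34, adjusted p = 0.000599), and with antibody it rose by 0.99 (adjusted p = 0.00739, and 0.0605 without antibody 24 h library 2) and Rrp12 by 1.02 (adjusted p = 0.00433). Nolc1, a nucleolar chaperone of snoRNPs, had 139, 141 and 161 CPM with LPS at 72 h and 415, 399 and 393 CPM with antibody, far apart in all libraries (1.45, SE 0.203, adjusted p = 0.00122). Rrp12, a factor of subunit export, had 38.9, 40.7 and 45.8 CPM against 108, 95.8 and 103 CPM (1.29, adjusted p = 0.00222). Against PBS, the antibody group at 72 h had more Ncl (0.98, adjusted p = 0.00342) and Nolc1 (0.93, adjusted p = 0.00805). From 24 h to 72 h of LPS, Bop1 fell by 1.78 (adjusted p = 0.000265) and Rrp12 by 1.72 (adjusted p = 0.000165). The antibody effect was larger at 72 h than at 24 h for 19 of the 30 (4.03% of all genes were called higher), by 1.68 for Nolc1 and 1.59 for Ncl (adjusted p = 0.00831 for both). That count of 19 was 8 to 23 without 1 library and 4 without both 24 h libraries numbered 1.

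**Figure D5:**
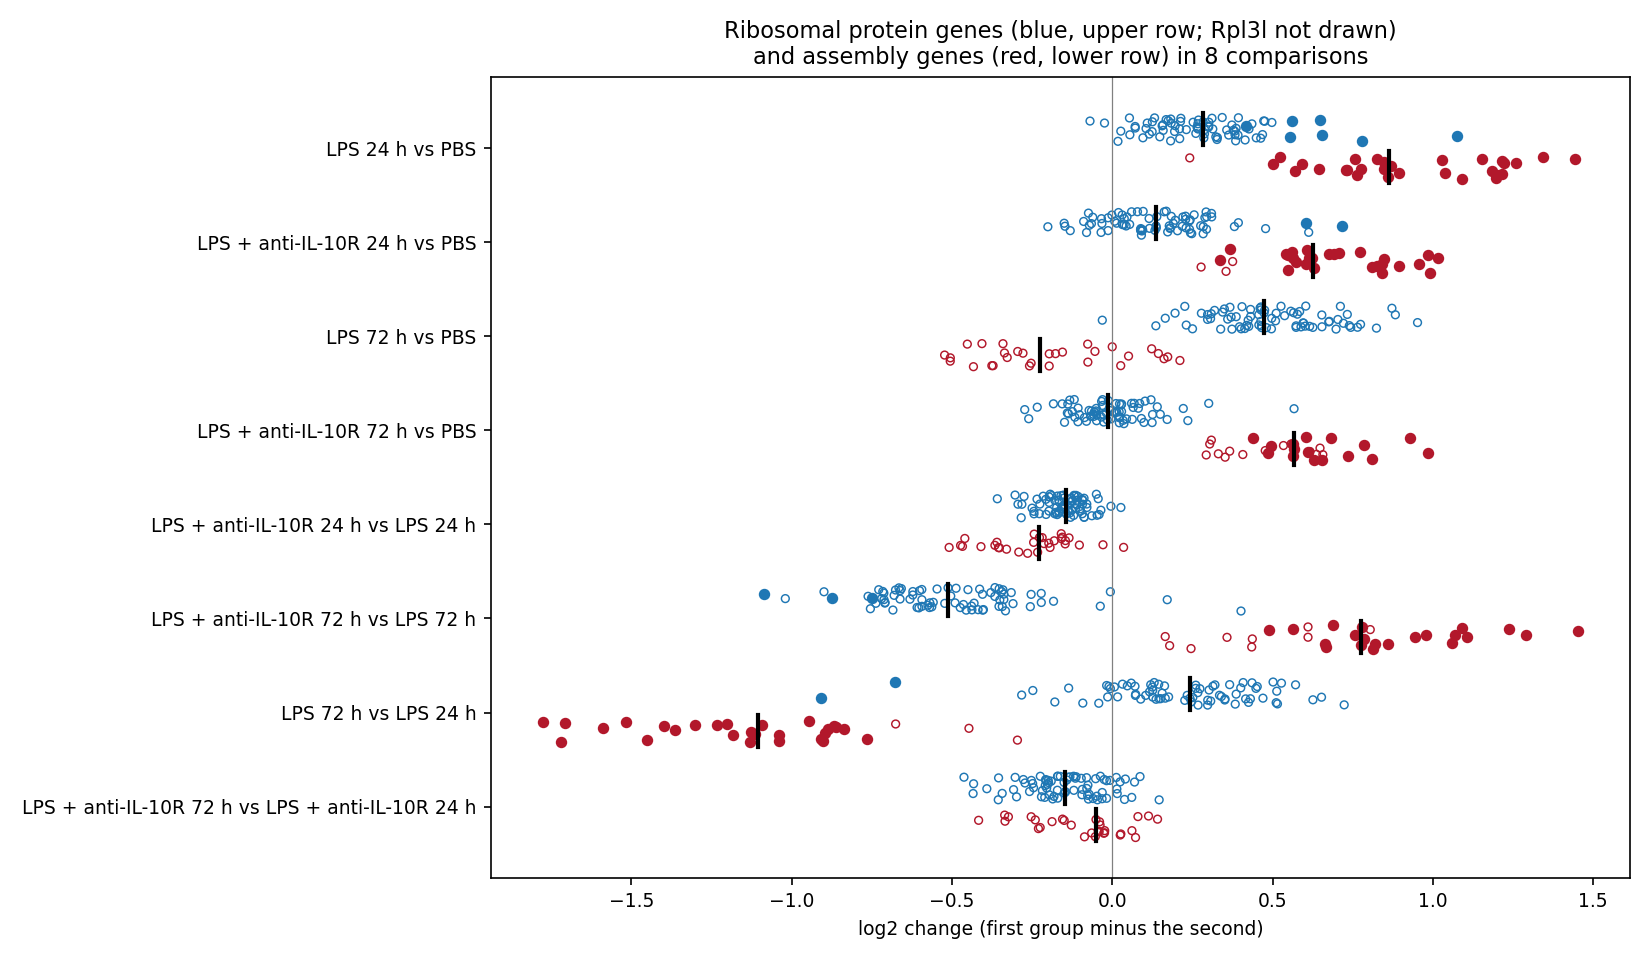
Log2 changes of the ribosomal protein genes (blue, upper rows, without Rpl3l) and of 30 assembly genes (red, lower rows) in the 8 comparisons. Each point is a gene, filled where the adjusted p is under 0.05, and black bars are medians. The medians lie on opposite sides of 0 in 4 comparisons, including antibody against LPS alone at 72 h (-0.52 and 0.78) and LPS at 72 h against 24 h (0.24 and -1.10).

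Other translation genes were split. Of 24 further genes with TOP mRNAs, 10 rose at 24 h of LPS (median 0.34, background 19.1%), 6 rose with antibody at 24 h (background 11.7%), 0 with LPS at 72 h and 4 with antibody at 72 h (background 6.81%). With the length trend removed the 10 became 5 higher and 5 lower. The 6 became 1 without antibody 24 h library 2 and 3 without antibody 24 h library 3, PBS library 2 or PBS library 5. The 4 became 0 without antibody 72 h library 3, 1 without library 1 of that group or PBS library 2, and 2 without PBS library 3 or 5. Npm1, which encodes a nucleolar chaperone and is also on the assembly list, rose by 1.09 (adjusted p = 0.000593) and Eef1d, a subunit of the elongation factor 1 exchange complex, by 1.09 (adjusted p = 0.00265). At 72 h, antibody against LPS alone, Npm1 was higher by 0.76 (adjusted p = 0.0195, lost without LPS 72 h library 1 or antibody 72 h library 3, at most 0.0861) and Eif3a was higher too, while Fau was lower. Of 20 genes of translation control (mTORC1, its targets, eIF2 kinases and Myc), 8 rose and 1 fell at 24 h of LPS (median 0.17, 0 rose when scaled to the members). Eif4e, the cap-binding protein, rose by 0.85 (adjusted p = 0.000451) and Mycn fell by 1.79 (adjusted p = 0.0046). At 72 h 7 of the 20 were higher with antibody than with LPS alone (background 8.64%, and 4 without LPS 72 h library 1 or 2 or antibody 72 h library 1), led by the cap-complex scaffold Eif4g1 (0.99, adjusted p = 0.00328) and the eIF2 kinase Eif2ak2 (0.97, adjusted p = 0.0336, lost without LPS 72 h library 1 or 2 or antibody 72 h library 1, at most 0.165). Of 12 proliferation genes, 3 rose at 24 h of LPS (Birc5, Bub1 and Ccna2), near the background of 19.1%. That count was 0 without LPS 24 h library 1 or PBS library 2, 1 without LPS 24 h library 2 or PBS library 1 or 5, and 5 without PBS library 4. In the 7 other comparisons 0 were called, where 0% to 31.1% of all genes were called in either direction.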

How the data were processed

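Polyadenylated RNA of sorted HSPC was sequenced in 17 libraries. The authors deposited 1 table of raw counts, whole numbers of reads per gene symbol. Per the submitters' processing notes, GRCm38, HISAT2 2.2.0, Subread, featureCounts 2.1.1, R 4.3.2 and DESeq2 were used, and their settings, annotation, strand and handling of multiply matching reads are not given in the sources used here. All columns matched labels.

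Counts were tested with edgeR 4.0.16 in R 4.3.3 (filterByExpr, TMM scaling, glmQLFit and glmQLFTest) in 1 fit of 17 libraries and 5 groups with 14920 genes (99.9% of the counts), with p-values adjusted by Benjamini-Hochberg within each of 8 comparisons and the difference of antibody effects. SE is the absolute log2 change over the root of F. Log2 CPM used a prior count of 2. Alternatives were DESeq2 1.42.0, other scalings, no filter, the compared groups only, a replicate block, leaving out each library, and 3 added after seeing the data (scaling to the members, removal of a length trend, and both 24 h libraries numbered 1 left out, whose names lack brackets). Lengths and coordinates come from GENCODE vM21 (GRCm38).

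Same-numbered libraries deviated together, with every correlation over 0.1, for LPS at 24 h against PBS (0.191, 0.188 and 0.158), and in no other comparison did all pairs. The numbers come from the titles, and the labels name no shared mouse or day. No 2 libraries of a group agreed within sampling noise (lowest chi-square per degree of freedom 11.8). On simulated counts for LPS at 24 h against PBS with 14778 genes, 49% of 100 genes changed 2-fold and 12% of 100 changed 1.5-fold were recovered.

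Named members were, per comparison, the 4 greatest increases and 4 greatest decreases called, the 4 farthest from the family, the 5 highest and 5 lowest levels and the listed role groups; from other lists, the 2 called genes with the greatest change, given for LPS at 24 h against PBS and antibody against LPS at 72 h, and for assembly genes in every comparison with calls. A called member is not reported here by name. The members and lists were chosen with earlier results of these data known.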

Additional observations from a re-analysis of the deposited data

Results flagged for a closer look

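In Rps2 and Rps27l the response to LPS differed between 24 h and 72 h, tested directly between these groups with edgeR. Rps2 changed by -0.678 (log2) from 24 h to 72 h and Rps27l by -0.91, each with every 72 h library below every 24 h library. Rpl3l had a fitted log2 change of 5.13, which rests on 2 counts at 24 h and 72 counts at 72 h and depends on the prior count; it is a description, since Rpl3l entered the family through groups where it is higher. The difference of the antibody effects between the times was also called for Rpl3l, with a fitted value of -4.44 on the same low counts. Among the 5 PBS libraries, no library stood far from the others for any of the 78 members.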

How the results depend on the processing

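Of 324 recomputed values for the family (calls, medians and group means), 265 stayed within 1.5 times the reported count or within the spread between replicates and 59 moved. The cause was not tested. Calls for LPS at 24 h against PBS (8) were 3 with upper-quartile factors, 4 in a fit of the compared groups, 4 scaled to the members, 43 with the length trend removed, 3 without both 24 h libraries numbered 1, and 3 to 17 leaving out 1 library. Their median (0.28) was -0.31 with the length trend removed, -0.10 without both libraries numbered 1 and -0.10 to 0.45 leaving out 1 library, and Rpl8, Rpl27 and Rpl7a reversed to -0.026, -0.046 and -0.11 with the length trend removed. For antibody at 24 h against PBS (2) calls were 5 in the compared groups, 0 scaled to the members, 22 with the length trend removed (median -0.22) and 0 to 2 leaving out 1 library. For LPS at 72 h against PBS calls were 0 in all 17 alternatives, and the median was -0.034 scaled to the members. For antibody at 72 h against PBS (0) calls were 1 in the compared groups and 5 with the length trend removed, and the group's mean log2 CPM was 10.08 with scaling factors taken without the members. For antibody against LPS alone at 24 h calls were 0 in all 16 alternatives, with a median of -0.33 to 0.25 leaving out 1 library. At 72 h (3) they were 15 with upper-quartile factors, 15 with DESeq2, 1 without the filter, 0 in the compared groups, 45 with the length trend removed and 0 to 25 leaving out 1 library, and the median was 0.0011 scaled to the members. For LPS at 72 h against 24 h (3) calls were 6 with upper-quartile factors, 1 in the compared groups, 8 scaled to the members, 64 with the length trend removed, 45 without both libraries numbered 1 and 3 to 46 leaving out 1 library, with a median of 0.64 and of 0.056 to 0.64 in the last 2. For the difference of antibody effects (1) calls were 0 scaled to the members, 16 with the length trend removed, 0 without both libraries numbered 1 and 0 to 4 leaving out 1 library.

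The replicate block gave 3 calls for LPS at 24 h against PBS, 1 for antibody at 24 h against PBS and 0 for the difference of antibody effects, and moved no other count of members by over 1.5 times. Scaling to the members shifted the median of all genes by -0.45 to 0.45 and removing the length trend by -0.22 to 0.20. Scaled to the members, the calls of Eif4e and Rpl7l1 (LPS at 24 h), Rrp12 and Bop1 (antibody at 24 h), Ncl and Nolc1 (antibody at 72 h, both against PBS) and Ncl and Nolc1 (difference of antibody effects) were lost, as was that of Nolc1 at 72 h against PBS with the replicate block. Counting depth limits Rpl3l, which had at most 34 counts in a library.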
